A study of Mus musculus with 18 samples.

Results

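Macrophages and dendritic cells of the gut wall are recognised by a small set of surface, lysosomal and signalling genes, and 10 of these were followed in ileum cells: *Csf1r*, *Adgre1*, *Cd68*, *Mrc1*, *Lyz2*, *Cd14*, *Itgam*, *Itgax*, *Cx3cr1* and *Zbtb46*. They were found by gene name among the 37074 gene names of the array, *Adgre1* under its older name *Emr1*, and each gene was read from its brightest probe. Of the 10 genes, 9 were tested, their brightest probe being well above background on 5 or 6 of the arrays of some group. *Cx3cr1* passed only through the chow group, in which it was highest, so no count over the tested genes is read as support.

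RNA came from 18 samples, with 1 one-colour Agilent array per sample and 6 arrays per group. Mice entered at 8 weeks of age and were fed for 8 weeks. The study describes killing all mice at Zeitgeber Time 3 (3 hours after lights on), following a fast overnight. The first group was iPGC1afl/fl on CHOW, the second iPGC1afl/fl on HFD (42% of calories from fat, with 0.2% cholesterol, the Western diet of the study), and the third iPGC1a-/- on HFD. In all 3 groups the *Pgc1a* gene carries loxP sites. In iPGC1a-/- mice a Cre recombinase driven by the Villin promoter, which is active in gut epithelium and not in macrophages or lymphocytes, removes exons 3, 4 and 5. The labels write single cells, but each sample is the bulk RNA of cells released from the ileum by chelation, so fewer cells of a type and less RNA per cell cannot be told apart. iPGC1a-/- mice on chow were not analysed here.

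On each array 56.3 to 62.3% of the spots were well above background. Each of 3 slides held 2 arrays of every group. The probes of *Ppargc1a*, the deleted gene, were not lower in the arrays labelled iPGC1a-/- (brightest probe 11.67 against 11.38 in floxed mice on HFD, normalized log2 signal). Whether those probes lie in the deleted exons was not determined, so directions by genotype refer to the labels. 

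Macrophages of the gut depend on the receptor CSF1R, take up bacteria and dying cells, and sense bacterial lipopolysaccharide through CD14 together with TLR4 and MD-2. The integrins CD11b (*Itgam*) and CD11c (*Itgax*) pair with the β2 chain encoded by *Itgb2* and hold myeloid cells to vessels and to each other. Neither marks one lineage only: CD11c is also carried by activated T cells of the gut epithelium, and lysozyme is made in the ileum by Paneth cells as well as by macrophages.

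The label of the gene set was only partly borne out by the arrays. *Adgre1*, which encodes the defining surface protein of mouse macrophages, was below the detection limit on all 18 arrays with both of its probes. Among 20 other macrophage genes chosen as companions, 10 passed the filter and 5 were not above background on any array: *Fcgr1*, *Cd163*, *Msr1*, *Trem2* and *Vsig4*. Among 10 other dendritic cell genes 5 passed, and *Xcr1*, *Clec9a*, *Clec10a* and *Clec4a4* were not above background on any array. *Spi1*, the transcription factor that sets the myeloid lineage, was not above background on any array either. Of all 37074 gene names of the array, 21537 had a brightest probe that passed the filter. The counts of macrophage and dendritic cell genes that passed are therefore not read as evidence for or against the label. *Fabp2*, a fatty acid carrier of enterocytes, had a mean log2 signal of 18.17 on chow and 18.21 on HFD. The genes are therefore called marker genes here, with no claim that their signal came from macrophages or dendritic cells.

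Several of the results turn on what a probe binds, so the first 30 of the 60 bases are shown for the probes that matter most. They are given 5′ to 3′ as the array files hold them, with positions on mm9, and capitals mark a CA dinucleotide repeat.
Itgam, brightest probe (chr7:135261755-135261814, + strand): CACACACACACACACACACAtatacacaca
Itgam, second probe (chr7:135212140-135212199, + strand): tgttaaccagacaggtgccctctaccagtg
Itgax, brightest probe (chr7:135294052-135294111, + strand): tcccatctacttttgcaacgttggaattga
Lyz2, brightest probe (chr10:116714450-116714509, - strand): cttaagttccttcattcacactaactctga
Lyz2, second probe (chr10:116719175-116719234, - strand): aacgttgtgagtttgccagaactctgaaaa
Lyz1, brightest probe (chr10:116724862-116724921, - strand): ccaataaccacaggagcaaatctaatctca
Cd68, brightest probe (chr11:69477775-69477834, - strand): gcctcatctcttcaccatgccactgactca
Adgre1, brightest probe (chr17:57622843-57622902, + strand): ttgtgtttcctatgcactttcttgtggtgt

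The brightest *Itgam* probe opened with 20 bases of the CA repeat. It was placed at position 4431 of its transcript, while the second probe, at position 270, held no repeat longer than 4 bases. A CA repeat of 20 bases or more (reading the probe strand) stood in 29 probes of the array, 0.0512% of all, and its reverse complement, a TG repeat of that length, in 46. Every one of the 29 was well above background on all 18 arrays, whereas 50.0% of all 56605 probes were. All 46 with the TG repeat were above background on all arrays too. A second gene of the lists, *Ly96*, which encodes MD-2, was also read from such a probe, with a repeat of 30 bases.

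**Figure D1:**
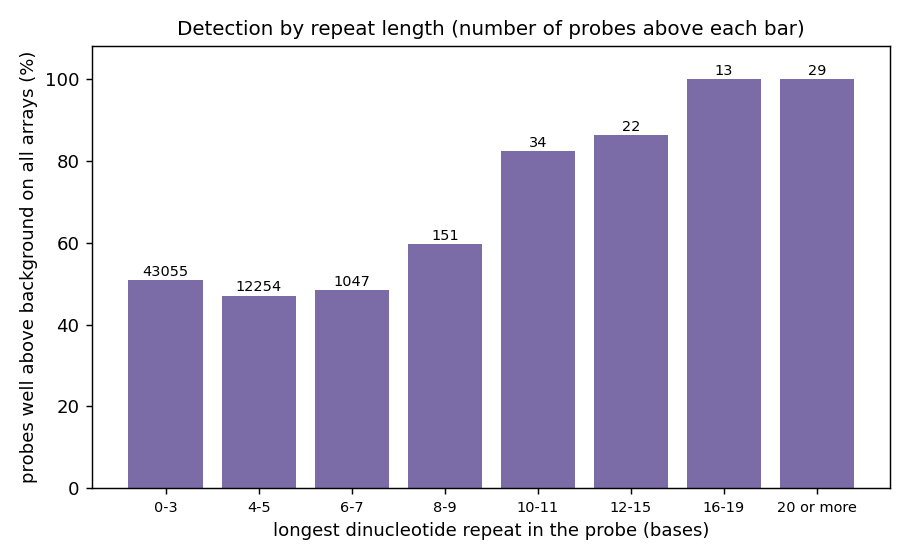
Share of probes well above background on all 18 arrays (vertical axis, %) by the longest CA dinucleotide repeat within the probe in bases (horizontal axis), with the number of probes above each bar. The share was 50.8% at 3 bases or fewer, 82.4% at 10 to 11 bases and 100% in the 29 probes with 20 or more, the class that holds the brightest *Itgam* probe.

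The first comparison, HFD against chow in floxed mice, asks how the diet moved the marker genes. *Cd14* and *Itgax* fell. The remaining 7 tested genes were not called, that is, they did not combine an adjusted p of 0.05 or lower with a fold change above 1.5. Among all 21537 genes tested on their brightest probe, 5.20% were called lower on HFD, against 2 of the 9 tested marker genes, and 8.43% were called in either direction.

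**Figure D2:**
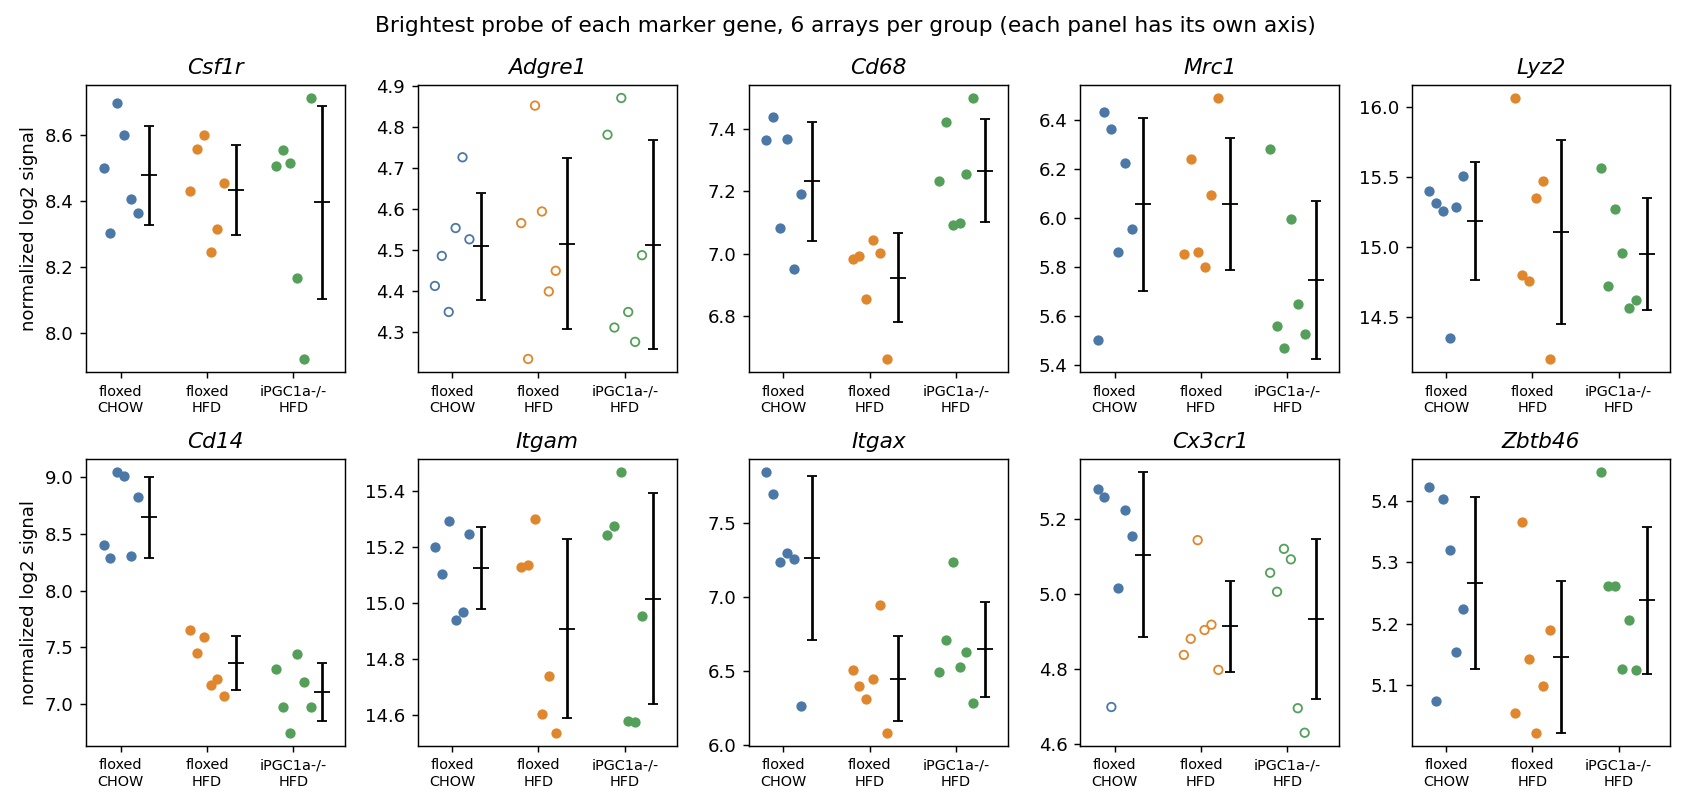
Normalized log2 signal (vertical axis, own scale in each panel) of the brightest probe of the 10 marker genes on each of the 18 arrays, by group, with the mean and SD of 6 arrays beside the points. Open points are arrays on which the probe was not well above background, as for *Adgre1* on all 18 and for *Cx3cr1* on all 12 HFD arrays. The chow arrays of *Cd14* (8.28 to 9.05) lie above all HFD arrays.

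*Cd14* encodes the lipopolysaccharide co-receptor of monocytes and macrophages. Its log2 signal on the chow arrays ran from 8.28 to 9.05 with a median of 8.61, on floxed HFD arrays from 7.07 to 7.65 with a median of 7.34, and on iPGC1a-/- HFD arrays from 6.75 to 7.44 with a median of 7.09. Every chow array lay above every HFD array of either genotype. HFD against chow in floxed mice changed *Cd14* by -1.29 on the log2 scale (SE 0.15, n = 6 per group, limma adjusted p = 5.76e-06), 2.44-fold lower on HFD. The exact permutation p was 0.00216, the smallest that 6 arrays against 6 allow. Among all genes 10.4% had groups that did not overlap in this comparison.

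The second *Cd14* probe, which overlaps no base of the first, gave -1.32 (SE 0.15, adjusted p = 3.84e-06). Over the 18 arrays the deviations of both probes from their group means correlated with r = 0.854 (within slides 0.924, 0.623 and 0.936). Within the 3 slides the diet difference of the brightest probe was -1.39, -0.94 and -1.53. Of the other parts of the receptor, *Tlr4*, the signalling chain, ranged from 8.18 to 8.45 on chow and from 8.07 to 8.48 on HFD (0.05, adjusted p = 0.75). The repeat probe of *Ly96* gave -0.20 (adjusted p = 0.37) and its second tested probe -0.25 (SE 0.11, interval -0.48 to -0.03, adjusted p = 0.0956), neither called. *Lbp*, whose protein hands lipopolysaccharide to CD14, was lower by -0.64 (SE 0.10, interval -0.86 to -0.43, adjusted p = 0.000116). It was above background on 6 chow arrays and on none of the floxed HFD arrays, with group means at least 1.56-fold apart.

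*Itgax* encodes CD11c, the integrin by which dendritic cells are usually gated. On chow its log2 signal ran from 6.26 to 7.84 with a median of 7.27, on floxed HFD from 6.08 to 6.95 with a median of 6.42, and on iPGC1a-/- HFD from 6.28 to 7.23 with a median of 6.58. Of the 6 chow arrays 5 lay above all floxed HFD arrays, and the remaining one, chow replicate 6 at 6.26, lay among them, so the groups overlapped. The difference was -0.82 (SE 0.21, adjusted p = 0.0074, exact permutation p = 0.013), 1.76-fold lower on HFD. Within slides it was -0.87, -0.35 and -1.23. The other 2 *Itgax* probes were above background on at most 1 array of a group, so this change rests on 1 probe, at position 3905 of the transcript.

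The arrays with high *Itgax* were those with high T cell genes. After removing group means, *Itgax* correlated with the mean of 9 T cell and intraepithelial lymphocyte genes over the 18 arrays with r = 0.912 (rho = 0.831, adjusted permutation p = 2.4e-05 for r and 0.00012 for rho, over 12 relations computed), and with r = 0.834 without the 2 arrays farthest from the median. Within the 3 slides of 6 arrays r was 0.958, 0.866 and 0.871. Of 21464 other genes tested, *Cd3g*, a chain of the T cell receptor complex, and *Grap2*, a T cell adaptor, were the most like *Itgax* (both r = 0.933 as rounded), followed by an unnamed transcript. With 6 B cell genes r was 0.203 (adjusted p = 0.42), and within slides 0.945, 0.201 and -0.657. *Cd14* did not share the T cell pattern: r was -0.298 (adjusted p = 0.279), and within slides -0.733, 0.02 and -0.08.

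T cell genes themselves fell with the diet. All 9 were called lower on HFD, 8 of them above background on 5 or more floxed HFD arrays as well, and their summed linear signal ran from 14060 to 50130 on chow, from 5999 to 10660 in floxed mice on HFD and from 7659 to 13000 in iPGC1a-/- mice. The largest changes were in *Gzma* (-2.17, SE 0.25), *Gzmb* (-1.80, SE 0.27), *Cd8a* (-1.76, SE 0.21) and *Cd8b1* (-1.69, SE 0.24), genes of cytotoxic intraepithelial lymphocytes. Of 6 genes of all leukocytes 5 were called lower, *Cd52* (-1.94, SE 0.30) and *Coro1a* (-1.84, SE 0.27) most, and their sum fell from between 4463 and 11020 to between 2910 and 4214. Of 6 B cell genes 4 were lower (*Cd79b* -2.60, *Ms4a1* -2.00), as were both tested plasma cell genes (*Jchain* -3.23). Among these called genes, *Cd53* of the leukocyte list, *Ms4a1* and the plasma cell gene *Mzb1* were above background on fewer than 5 floxed HFD arrays. They passed the filter without that group, so the counts of these lists are not read as support. Of all genes 5.20% were called lower in this comparison. The part of lymphocytes in the *Itgax* result was not tested.

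**Figure D3:**
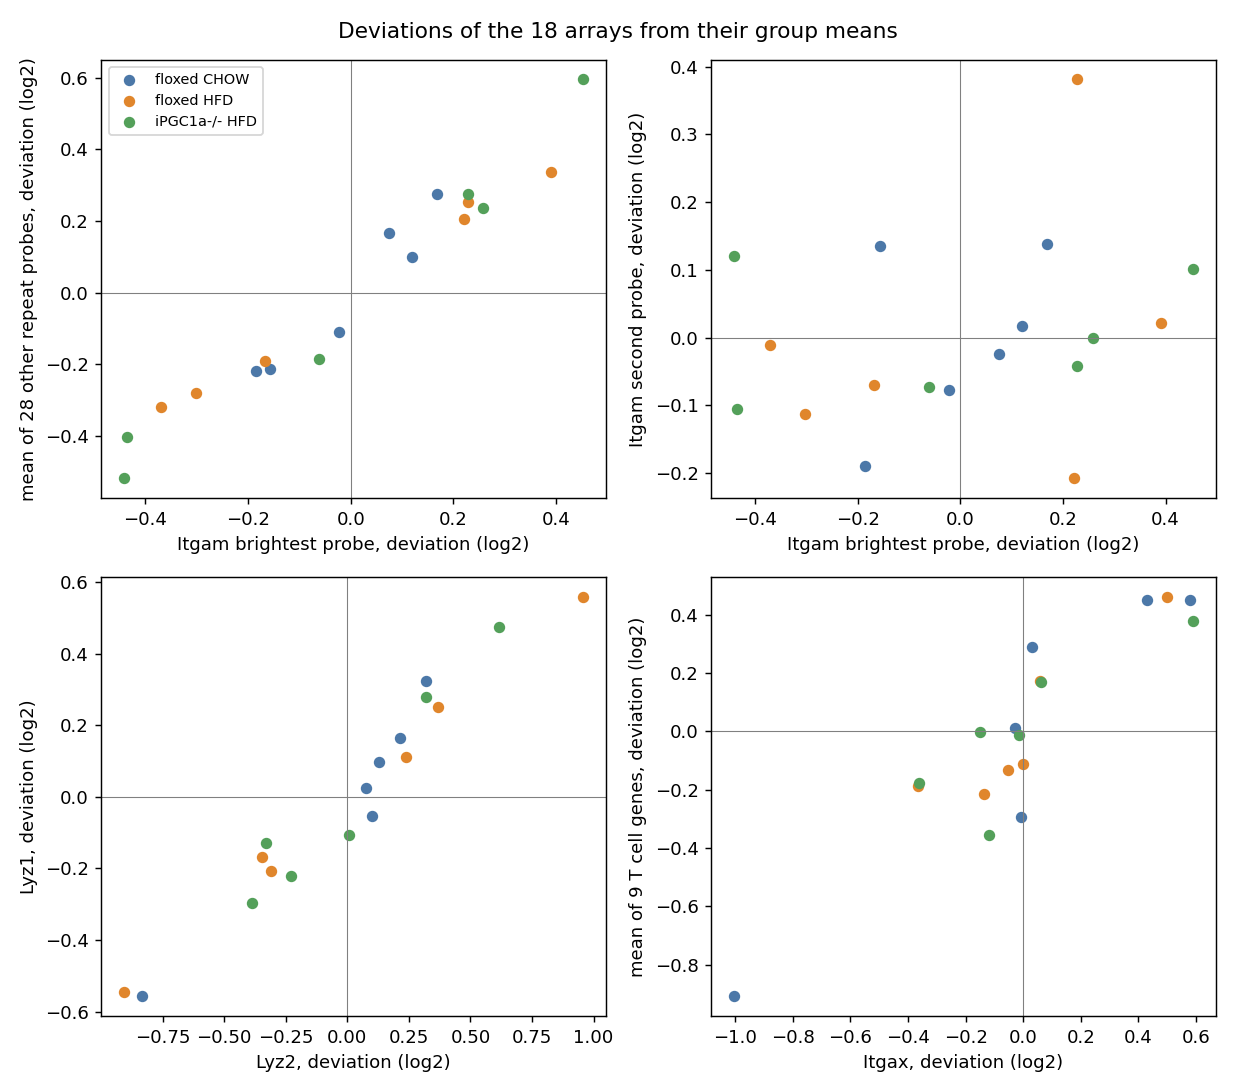
Deviations of the 18 arrays from their group means (log2, both axes, points coloured by group) for 4 pairs of measures. The brightest *Itgam* probe follows the mean of 28 other repeat probes (r = 0.976) and not the second *Itgam* probe (r = 0.260), *Lyz2* follows *Lyz1* (r = 0.976), and *Itgax* follows the mean of 9 T cell genes (r = 0.912), in which 1 chow array lies far below the others.

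*Itgam* encodes CD11b, the integrin of monocytes, macrophages and neutrophils. Its brightest probe ran from 14.94 to 15.29 on chow, from 14.54 to 15.30 on floxed HFD and from 14.58 to 15.47 in iPGC1a-/- mice, and the groups overlapped. The diet difference was -0.22 (95% interval -0.55 to 0.11, adjusted p = 0.339). The second probe, above background on all 18 arrays, ranged from 5.15 to 5.47, from 5.16 to 5.75 and from 5.30 to 5.53, with a diet difference of 0.04 (interval -0.15 to 0.22, adjusted p = 0.814).

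The 2 *Itgam* probes differed in how they varied across arrays. Their deviations correlated with r = 0.260 (adjusted permutation p = 0.331), and within slides r was 0.250, -0.02 and 0.633. The brightest probe instead followed the 28 other probes that hold the repeat: r with their mean was 0.976 (rho = 0.971, adjusted p = 2.4e-05; 0.968 without the 2 farthest arrays; 0.982 to 0.985 within slides), and r with each of them lay between 0.893 and 0.993. An r of 0.893 or more, the lowest among the 28, was reached by 0.247% of all genes. That share may itself include genes read from repeat probes. The differences of *Itgam* are therefore given from both probes in the text, and neither was called. The plots of single genes and the counts over the 9 tested genes hold the brightest probe.

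*Cd68* encodes a lysosomal glycoprotein of phagocytes. It ran from 6.95 to 7.44 on chow with a median of 7.28, from 6.66 to 7.04 in floxed mice on HFD with a median of 6.99, and from 7.09 to 7.50 in iPGC1a-/- mice with a median of 7.24. Floxed HFD arrays were lowest, and 5 of 6 chow arrays lay above all of them. The diet difference was -0.31 (SE 0.10, interval -0.52 to -0.11, adjusted p = 0.0269, exact permutation p = 0.013), below the fold threshold. An adjusted p of 0.05 or lower alone was reached by 3 of the 9 genes and by 24.6% of all genes. The second *Cd68* probe, above background on 4 of 6 floxed HFD arrays, gave -0.10 (adjusted p = 0.468) and tracked the first over arrays (r = 0.768, and 0.558, 0.918 and 0.952 within slides).

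*Csf1r*, the CSF1 receptor on which macrophages depend, was not called in any comparison. Its log2 signal ran from 8.30 to 8.69 on chow, from 8.24 to 8.60 on floxed HFD and from 7.92 to 8.71 in iPGC1a-/- mice, and all 3 groups overlapped. The diet difference was -0.04 (interval -0.28 to 0.20, adjusted p = 0.82), an interval within 1.5-fold in both directions. The second probe gave 0.00 (interval -0.22 to 0.23). Its 2 probes correlated over arrays with r = 0.554 (within slides 0.629, 0.923 and 0.563), and the genes most like the brightest probe were *Nanog* (r = 0.948), *Sart1* (r = 0.915) and an unnamed transcript (r = 0.915). *Nanog* is known from pluripotent cells and *Sart1* from RNA splicing.

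*Lyz2* encodes lysozyme M, the usual driver of myeloid Cre lines. It ran from 14.35 to 15.50 on chow, from 14.20 to 16.06 on floxed HFD and from 14.56 to 15.57 in iPGC1a-/- mice, the widest spread within groups of all tested marker genes (SD 0.504). The diet difference was -0.08 (interval -0.61 to 0.46, adjusted p = 0.859), so a change of up to 1.5-fold down is inside the interval. Its second probe, at position 94 of the transcript, tracked the first (r = 0.922, and 0.770, 0.986 and 0.972 within slides) with a diet difference of -0.17 (adjusted p = 0.631).

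*Lyz2* varied over arrays with genes of Paneth cells, with *Lyz1* above all. *Lyz1*, its neighbour and close copy, which Paneth cells secrete, was the most similar of 21464 genes (r = 0.976, rho = 0.967, adjusted permutation p = 2.4e-05, 0.961 without the 2 farthest arrays), followed by *Defa21*, an α-defensin of Paneth cells (r = 0.972), and *Atf7* (r = 0.961). Within slides r with *Lyz1* was 0.993, 0.943 and 0.994. With the mean of 5 Paneth cell genes, *Lyz1* among them, r was 0.830 (adjusted p = 8e-05), and within slides 0.460, 0.938 and 0.864. *Lyz1* ranged from 15.71 to 16.59 on chow and from 15.72 to 16.82 on HFD (0.00, adjusted p = 0.996). How far the *Lyz2* probes also bind *Lyz1* RNA was not tested.

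*Mrc1*, the mannose receptor of resident macrophages, ran from 5.50 to 6.43 on chow and from 5.80 to 6.49 on floxed HFD, with a diet difference of 0.00 (interval -0.34 to 0.35, adjusted p = 0.995). *Cx3cr1* encodes the fractalkine receptor of gut macrophages. It ran from 4.70 to 5.28 on chow, where 5 of 6 arrays were above background, and from 4.80 to 5.14 on floxed HFD, where none was. The fit gave -0.19 (SE 0.11, interval -0.42 to 0.03, adjusted p = 0.213), so no change was shown. With dim values raised to the lowest value well above background, the group means differed by 1.14-fold. The background-subtracted processed signal gave -0.59 (adjusted p = 0.405). Its ligand *Cx3cl1* was well above background on all arrays and changed by -0.18 (adjusted p = 0.207). *Zbtb46*, a transcription factor of classical dendritic cells, ran from 5.08 to 5.42 on chow and from 5.02 to 5.37 on floxed HFD (-0.12, interval -0.29 to 0.05, adjusted p = 0.306), and its other 3 probes were not above background on any array. *Adgre1* lay between 4.24 and 4.87 over all arrays and was not tested.

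**Figure D4:**
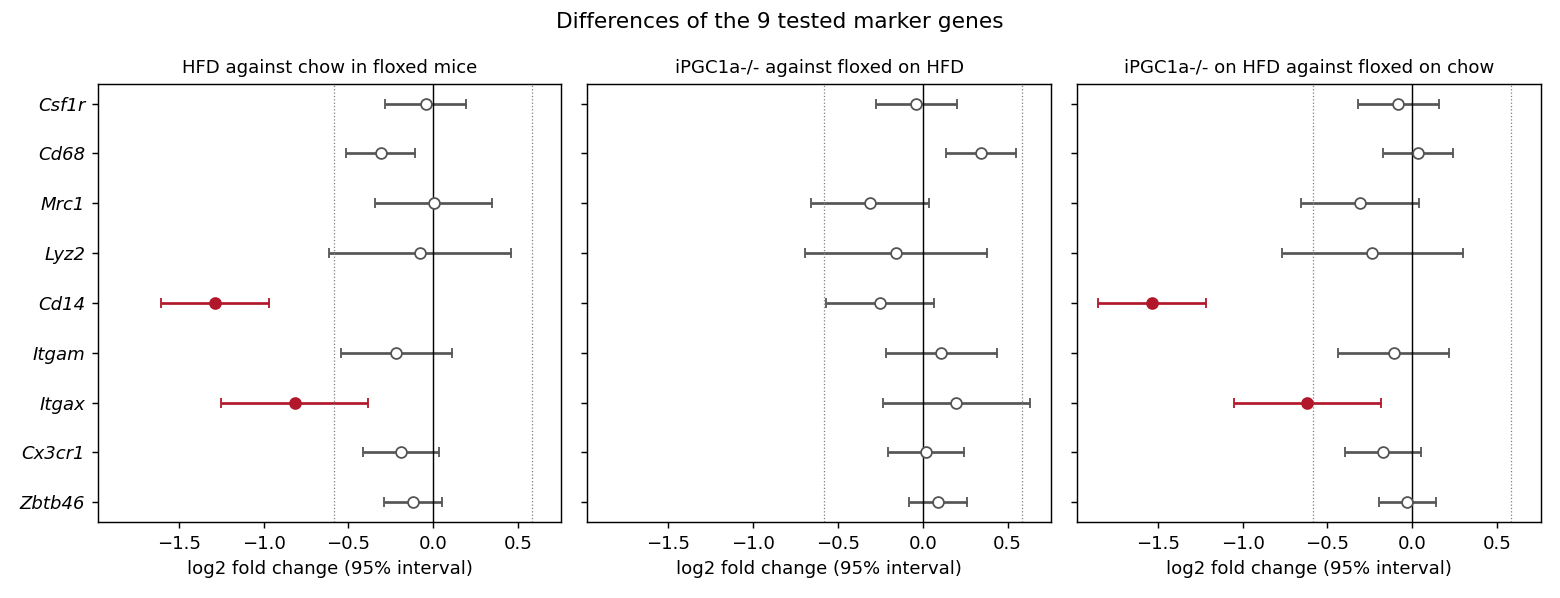
Log2 fold change with its 95% interval (horizontal axis) of the 9 tested marker genes in the 3 comparisons, with filled red points for called genes and dotted lines at 1.5-fold. *Cd14* (-1.29) and *Itgax* (-0.82) are called in the diet comparison, none in the genotype comparison, and the same genes, with -1.54 and -0.62, where both diet and genotype differ.

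The second comparison, arrays labelled iPGC1a-/- against floxed mice on HFD, asks what loss of the epithelial coactivator changed under the diet. None of the 9 tested marker genes was called by limma, and 1, *Cd68*, had an unadjusted p under 0.05, as did 9.30% of all genes. Among all genes 0.135% were called. For 6 of the 9 tested marker genes the 95% interval stayed within 1.5-fold in either direction. Among them, *Cx3cr1* was not above background on any array of either group, and *Itgam* was read from its repeat probe. The count is therefore not read as a lack of change.

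*Cd68* was the marker gene that stood out: all 6 iPGC1a-/- arrays (7.09 to 7.50) lay above all 6 floxed HFD arrays (6.66 to 7.04). The difference was 0.34 (SE 0.10, interval 0.14 to 0.55), with an exact permutation p of 0.00216 and an adjusted p over all probes of 0.255, so it failed the correction. Of all genes 0.966% had groups that did not overlap here. Within the 3 slides the difference was 0.34, 0.38 and 0.31. The second probe gave 0.15 (adjusted p = 0.597). Against floxed chow the iPGC1a-/- arrays differed by 0.03 (interval -0.17 to 0.24, adjusted p = 0.815).

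*Mrc1* ran from 5.47 to 6.28 in iPGC1a-/- mice, a difference of -0.31 (interval -0.66 to 0.04, adjusted p = 0.565), with overlapping groups. With the processed signal it was -0.62 (adjusted p = 0.516). *Cd14* differed by -0.25 (interval -0.57 to 0.07, adjusted p = 0.608) and its second probe by -0.08. *Itgax* differed by 0.20 (adjusted p = 0.785), *Lyz2* by -0.16 (adjusted p = 0.869), *Itgam* by 0.11 on the repeat probe and 0.04 on the second, *Zbtb46* by 0.09, *Cx3cr1* by 0.02 and *Csf1r* by -0.04. The widest of these intervals, that of *Lyz2*, ran from -0.69 to 0.38.

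The third comparison set iPGC1a-/- mice on HFD against floxed mice on chow, in which diet and genotype cannot be told apart. It shares its arrays with the other comparisons. *Cd14* differed by -1.54 (SE 0.15, adjusted p = 4.72e-07, 2.90-fold lower) with no overlap. *Itgax* differed by -0.62 (SE 0.21, adjusted p = 0.0261, exact permutation p = 0.0433), with overlapping groups, and without chow replicate 1, chow replicate 2 or iPGC1a-/- replicate 6 it was no longer called. *Itgam* differed by -0.11 on the repeat probe and 0.07 on the second. Among all genes 11.8% were called and 16.2% did not overlap. For *Cd14* the order of the groups was chow, floxed HFD, iPGC1a-/- HFD, and the last 2 did not differ beyond their spread. For *Itgax* it was chow, iPGC1a-/- HFD, floxed HFD, again with no difference shown between the HFD groups.

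The genes that work with the markers were read from 8 companion lists with 70 genes, 46 of which passed the filter. On HFD against chow in floxed mice, 18 were called lower and 1 higher. Of all genes 5.20% were called lower and 8.43% in either direction, the share to set beside the list counts below. Of the 18, 5 passed the filter without the floxed HFD group, where fewer than 5 arrays were above background: *Ccr7*, *Fermt3*, *Irf4*, *Lbp* and *Ltf*. A gene that passes only through the group where it is high is more apt to differ in that direction. The count is therefore not read as support for a direction. In the integrin list 6 of 7 were called lower, *Fermt3* among them. *Itgb7* (-1.71, SE 0.21) and *Itgae* (-1.68, SE 0.22) form the receptor that holds intraepithelial lymphocytes to E-cadherin, and *Itgb2*, the partner chain of *Itgax* and *Itgam*, ran from 6.29 to 7.24 on chow and from 5.90 to 6.46 on HFD (-0.75, SE 0.13, adjusted p = 0.000366). *Icam1*, a ligand of the β2 integrins, changed by -1.23 (SE 0.17). *Itgb7*, *Itgae* and *Itgb2* are shared with lymphocytes, whose genes fell as given above. The part of lymphocytes in the integrin changes was not tested.

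Among the transcription factors, 2 of 7 were lower: *Irf8* (-0.88, SE 0.11), which ran from 12.06 to 12.78 on chow and from 11.40 to 11.65 on HFD, and *Irf4* (-0.81, SE 0.15), above background on 1 of 6 HFD arrays. Both act in dendritic cells and in B cells. Of 5 tested dendritic cell genes 2 were lower, *Wdfy4* (-1.66, SE 0.37), needed for cross-presentation, and *Ccr7* (-1.37, SE 0.29), the homing receptor of migrating dendritic cells and naive lymphocytes. Both overlapped between the diets. Of 6 tested monocyte and neutrophil genes 2 were lower, *Ly6c2* (-2.04, SE 0.25), which also marks T cells and has the near copy *Ly6c1*, and *Ltf* (-1.17, SE 0.10), the iron binder lactoferrin.

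Of 10 tested macrophage genes 4 were lower and 1 higher, and all 5 passed the filter in both diet groups. Over the 10 the differences had a median of -0.44 and ran from -0.79 to 0.95, with 7 below 0 and 3 above. The one that rose was *Mertk*, a receptor for the uptake of dying cells, which ran from 9.29 to 10.34 on chow and from 10.47 to 11.23 on floxed HFD (0.95, SE 0.18, adjusted p = 0.000653), with no overlap. In the CSF receptor list 1 of 6 was lower. Of the ligands of *Csf1r*, *Csf1* was above background on 4 chow and 1 floxed HFD arrays and was not tested, and *Il34* changed by -0.12 with the diet (adjusted p = 0.682). In iPGC1a-/- mice *Il34* ran from 5.83 to 6.95, against 5.34 to 5.89 in floxed mice on HFD (0.80, SE 0.19, adjusted p = 0.125). No companion gene was called by genotype on HFD.

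**Figure D5:**
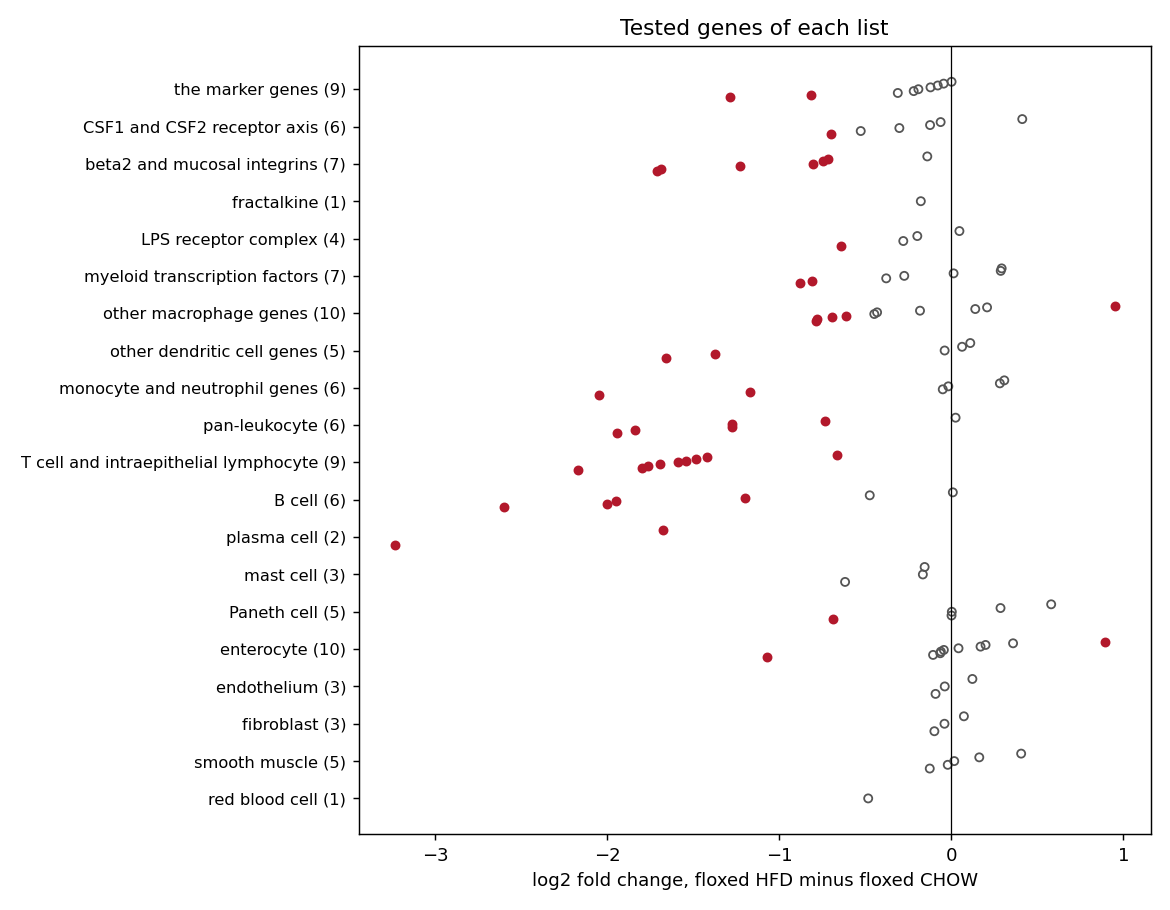
Log2 fold change of floxed HFD minus floxed CHOW (horizontal axis) for the tested genes of each list, with the number tested in brackets and filled red points for called genes. All 9 T cell genes and 6 of the 7 integrin genes are called lower. *Fermt3*, *Lbp* and *Cd53*, not above background on any floxed HFD array, are among the points.

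Epithelial and stromal genes had diet medians near 0. Single genes differed more. The 10 enterocyte genes had a median of 0.00 and ran from -1.07 to 0.90, with 1 called lower and 1 higher. The 5 Paneth cell genes had a median of 0.00 and ran from -0.69 to 0.58, with 1 lower. Of all genes 8.43% were called in either direction. No endothelial, fibroblast, smooth muscle, mast cell or red blood cell gene that was tested was called, the 1 tested red blood cell gene being at -0.48.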

How the data were processed

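Total RNA of ileum cells was labelled with Cy3 and hybridised to Agilent SurePrint G3 Mouse GE v2 arrays. The authors scanned them with Agilent Feature Extraction 10.10.1.1 and deposited the intensity of each spot, not normalized between arrays. A second deposited table holds log2 values of 33095 probes after the authors' filtering, batch correction and smooth quantile normalization. Its column medians were all 7.44 as rounded, and its array differences correlated with those computed here at 0.9997 or more, so its scale is log2, and it was used as an alternative. No fold changes of the authors were used.

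Control and outlier spots were left out and spots of a probe averaged. A probe was kept when 5 or more of the 6 arrays of some group put it well above background (32726 probes). Smooth quantile normalization of the log2 median signal followed, recoded after qsmooth with a window of 0.05 and run in R 4.3.3. Values of probes below that filter come from the same normalization over all 56605 probes and were not tested. All 18 arrays entered 1 limma 3.58.1 model without a replicate block, with Benjamini-Hochberg adjustment over all tested probes. A gene was called when its brightest probe changed more than 1.5-fold (0.585 on the log2 scale) with an adjusted p not above 0.05. "At least" folds set the brighter group's mean against the dim group's mean of, per array, the higher of the probe's own value and the lowest value well above background. They allow for the background only and not for the spread of the arrays. Single genes were also compared by two-sided exact permutation over all 924 divisions of 12 arrays, and relations over arrays by 100000 permutations, in which 1e-05 is the smallest p. The T cell mean leaves out 1 outlier spot. The study describes each observation of this dataset as an animal, which the labels do not state. The number of arrays limits the precision. Fold changes near background understate a change.

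The marker genes, lists and relations were chosen with earlier results of these data known. Named genes are the 10 marker genes, of companion genes and of cell type lists the 10 called genes with the largest change in a comparison, partner and ligand genes, and the 3 genes most like *Csf1r*, *Itgax* and the most variable marker gene. Genes at background, genes that passed the filter without the floxed HFD group, *Lbp* and *Fabp2* were named after their values were seen. Probe positions (mm9) were read from the array files, and all 10 symbols are in the RefSeq gene table. Computation was tested on simulated data. Plots used matplotlib 3.10.9.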

Additional observations from a re-analysis of the deposited data

Results flagged for a closer look

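Of 27 sets of 6 arrays (9 tested marker genes in 3 groups), 2 held an array that stood apart by Dixon's test at the 95% level, in which the gap to the nearest other array is divided by the range of the set. Chance gives about 1 such set in 20. The lowest *Lyz2* array of the floxed chow group, replicate 4 at 14.35, lay below the next at 15.26 (ratio 0.789). The highest *Cx3cr1* array of the floxed HFD group, replicate 3 at 5.14, lay above the next at 4.92 (ratio 0.651), and was not well above background.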

How the results depend on the processing

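Of 837 recomputed differences of single marker genes, 803 kept their direction and their side of the threshold. *Cd14* (-1.37 to -1.12) and *Itgax* (-1.04 to -0.65) were called lower on HFD in floxed mice, and no marker gene by genotype on HFD, under every alternative run. Where diet and genotype both differed, 1 marker gene (*Cd14*) in place of 2 was called with normexp background correction (*Itgax* -0.51), and 1 to 2 when single arrays were left out (*Itgax* -0.82 to -0.50). Companion genes called on the diet were 12 with normexp, 11 of 35 tested when probes had to be above background on every array, and 17 to 20 with single arrays left out, against 19. By genotype 1 (*Csf2*) in place of 0 was called with the compared arrays alone. At an exact permutation p of 0.05 or lower, 2 marker genes (*Cd68* and *Mrc1*) in place of 1 differed by genotype with the processed signal (*Mrc1* -0.62 against -0.31), and 1 in place of 2 on both factors with quantile normalization and with the authors' table. The processed signal also gave *Cx3cr1* -0.59 on the diet and -0.73 on both factors, uncalled, where all alternatives ran from -0.59 to -0.077 and from -0.73 to -0.088. The cause was not tested. Directions reversed in uncalled genes near 0. On the diet they were *Csf1r* 0.00036 and *Lyz2* 0.028 (processed signal), *Lyz2* 0.012 and *Zbtb46* 0.0030 (median signal scaled to its 75th percentile), *Mrc1* -0.015 (strict filter) and -0.044 (array weights) and *Itgam* 0.036 (second probe, chosen after seeing the data). By genotype *Cx3cr1* was -0.14 (processed signal) and -0.042 (scaled median signal). On both factors *Zbtb46* was 0.039 (scaled median signal) and 0.0051 (array weights) and *Itgam* 0.073 (second probe). With single arrays left out, the differences that changed sign ranged on the diet from -0.11 to 0.077 (*Mrc1*) and from -0.27 to 0.10 (*Lyz2*), by genotype from -0.34 to 0.034 (*Lyz2*), from -0.017 to 0.080 (*Cx3cr1*) and from -0.10 to 0.057 (*Csf1r*), and on both factors from -0.15 to 0.013 (*Csf1r*), from -0.023 to 0.075 (*Cd68*) and from -0.071 to 0.0028 (*Zbtb46*). Groups shared replicate numbers. Of 18 same-numbered pairs of arrays, 9 correlated above 0.1 in their deviations (median 0.101, from -0.217 to 0.346). Of 90 pairs with different numbers 23 did (median -0.0305, from -0.361 to 0.442). Whether the numbers pair samples was not settled, and the main model holds no replicate block. With the replicate block 2, 0 and 2 marker genes and 19 and 0 companion genes were called, as without it, and 8 of 18 arrays correlated best with their own number. Signals near background (*Cx3cr1*, *Zbtb46*, *Adgre1*) limit what the arrays can show.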
